A study of Mus musculus with 18 samples.

Results

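The interleukin-1 (IL-1) family, its receptors and the inflammasome were followed through 10 genes, Il1a, Il1b, Il18, Il33, Il1rn, Il1r1, Il1r2, Il1rl1, Nlrp3 and Casp1. Of these, 9 had at least 1 probe set that carried a single gene symbol, out of 18193 genes measured in that way, and the brightest such probe set by its mean over all arrays stood for each gene. Il1rl1, which encodes the IL-33 receptor, had no such entry and is named only. The genes were read in whole MC38 tumours, which grow from a mouse colon carcinoma cell line and were implanted subcutaneously in C57BL/6-Ly5.1 mice aged 6 to 12 weeks. Tumours of 18 animals were hybridised to 1 Affymetrix Mouse430_2 array each. The question was what a MEK inhibitor, an agonist antibody to the immune receptor CD40 and their combination did to RNA levels in the tumour.

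MEKi/CD40 tumours (4 animals) received GDC-0623, an inhibitor of the kinase MEK, together with the anti-CD40 antibody of mouse IgG1 format. Anti-CD40 tumours (4 animals) received that antibody with the MCT vehicle, MEKi tumours (5 animals) received GDC-0623 with control IgG, and control tumours (5 animals) received vehicle with control IgG. GDC-0623 was given daily at 30 mg/kg for about 2 weeks, and the antibodies were injected into the peritoneum on treatment days 3, 5 and 7 and again 1 day before the tumours were removed, on day 22 of growth. All tumours shared the injection in Matrigel, a transplanted cell line under the skin and daily dosing with drug or vehicle. Values are log2 signals as deposited. Differences come from limma fits of 1 pair of groups over 45037 probe sets and are given with their SE, and a gene was called at a Benjamini-Hochberg adjusted p under 0.05.

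IL-1α and IL-1β bind the receptor IL-1R1 and, with the co-receptor IL-1RAcP, signal through MyD88 to NF-κB in fibroblasts, endothelium and leukocytes. The receptor antagonist IL-1Ra, encoded by Il1rn, occupies IL-1R1 without signalling, and IL-1R2 is a decoy receptor that binds IL-1 and does not signal. The inflammasome is a cytoplasmic complex in which a sensor such as NLRP3 activates caspase-1, which cuts the precursors of IL-1β and IL-18 into their active forms. IL-33 is stored in the nucleus of stromal, endothelial and epithelial cells and released on damage.

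Across the series, the median signal of an array was 2.73 to 2.96 and its upper quartile 8.15 to 8.25. A signal was counted as at the background floor when it was below 3, or when it lay at most 0.3 above a value under 6 that the probe set repeated on at least 6 arrays. By that count an array had 53.5 to 55.2% of its probe sets at the floor, and 48.0% were there on all 18. Of 8 epithelial markers for the carcinoma label, 7 were at the floor on all 18 arrays. The tumour MEKi/CD40 3 had the highest signal of all 18 arrays for 7 of the 9 genes. Results are given with and without it for part of the genes and lists. The share of all probe sets that peaked there was not counted. This tumour also had the highest mean of the monocyte, macrophage, T cell, endothelial, fibroblast, neutrophil, mast cell and eosinophil marker lists. It was not highest for the dendritic cell, epidermal, adipocyte, skeletal muscle and epithelial lists. Its eosinophil mean was 2.61, below the floor value of 3, and 4 of the 5 eosinophil markers were at the floor on all 18 arrays. The numbers in the sample titles were split into a low and a high series. All MEKi/CD40 and anti-CD40 tumours and 2 tumours each of MEKi and control were in the low series, and 3 each of MEKi and control were in the high series. Within the low series, the numbers of anti-CD40 and MEKi tumours lay below those of MEKi/CD40 and control tumours. Blocking on the series, or using the low series by itself, does not account for that difference. What the numbers stand for is not stated in the labels.

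**Figure D1:**
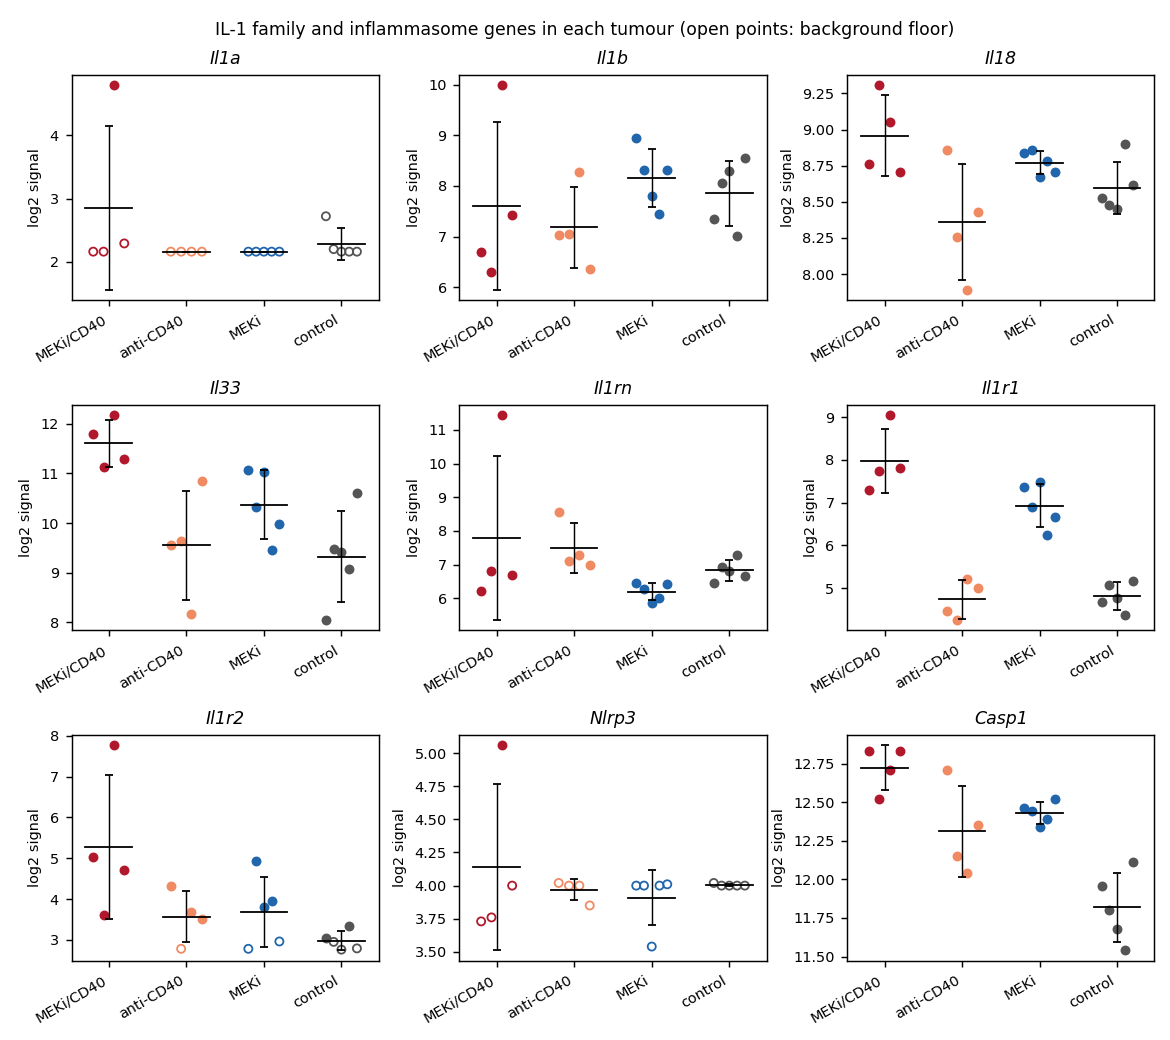
Deposited log2 signal (vertical axes) of 9 genes in each tumour, by treatment group (horizontal axes). Points are single tumours, open points are at the background floor, and bars give the mean ± SD. For Il1r1 the MEKi/CD40 tumours sit between 7.30 and 9.05 and the control tumours between 4.37 and 5.17, without overlap.

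The sequence next to the gene starts was read first, because MEK acts upstream of the AP-1 factors and IL-1 signalling upstream of NF-κB. In the RefSeq promoter set for GRCm38.p6, all 10 genes were present with 16 start sites. The 250 bases upstream of each start were searched on both strands for AP-1 (TGANTCA), NF-κB (GGGANNT directly followed by NCC), C/EBP (TTGCNNAA), IRF (GAAA and GAAA around any 2 bases) and PU.1 (GAGGAAGT). Of 32851 mouse promoters of the same length, 6.75% held the AP-1 letters, 3.33% the NF-κB letters, 9.56% the C/EBP letters, 2.98% the IRF letters and 2.44% the PU.1 letters. A match was found in 5 of the 10 genes, 1 match each, so that none overlapped another. That count takes any motif at any of the 16 start sites, so it cannot be set against the shares of single promoters. The stretches of 30 bases around the match are shown 5′ to 3′ along the gene for Il1rn, Il1a, Il1r1 and Il33. Each of these genes had its highest signal in MEKi/CD40 3, as did Il1b, Il1r2 and Nlrp3, which held no match. Il1r1 and Il33 were called in MEKi/CD40 against control, as was Casp1, which held no match. The Il33 match lay upstream of its start site 2, and the matches shown for the other genes lay upstream of start site 1. They lie at chr2:24336708-24336737 on the plus strand for Il1rn, chr2:129309973-129310002 on the minus strand for Il1a, chr1:40224936-40224965 on the plus strand for Il1r1 and chr19:29945694-29945723 on the plus strand for Il33. Capitals mark AP-1 letters in Il1rn and Il1a and C/EBP letters in Il1r1 and Il33.
Il1rn: ttctgctagacTGAGTCAcgcctctggaag
Il1a: taaaaaggcagagaagccTGACTCAgactt
Il1r1: gcctggcacgtTTGCTGAAtgcttctggct
Il33: tatcgctccatTTGCATAActttactcatc
These matches describe letters in a window, and factor binding was not measured. The fifth gene with a match was Il1rl1.

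MEKi/CD40 tumours had more RNA of the IL-1 receptor Il1r1, of the alarmin Il33 and of the protease Casp1 than control tumours. Of the 9 genes, 3 were called higher and 0 lower, where 5.5% of all probe sets were called higher and 9.37% lower. The median difference of the 9 genes was 0.90, against 0 over all probe sets and -0.06 over the probe sets detected above the floor. In whole-tumour RNA, more cells that express a gene and more RNA per cell cannot be told apart. For 4 of the 9 genes every MEKi/CD40 tumour lay above every control tumour, a pattern seen in 6.53% of all probe sets.

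Il1r1, the signalling receptor for IL-1, rose in MEKi/CD40. The MEKi/CD40 tumours read 7.30, 7.74, 9.05 and 7.82, and the control tumours read 4.68, 5.07, 4.78, 4.37 and 5.17. Every MEKi/CD40 tumour lay above every control tumour. The difference was 3.16 ± 0.36 on the log2 scale, or 8.96-fold (limma, adjusted p = 0.0022). Il1r1 was called in each of the 9 fits that left out 1 tumour, at 2.81 to 3.39. Without MEKi/CD40 3 the difference was 2.81 (adjusted p = 0.00132). Blocking on the number series gave 3.10 (adjusted p = 0.0179). The low series by itself, with 2 control tumours, gave the same 3.10 and no call (adjusted p = 0.0822). A second Il1r1 probe set read the lowest value of the file, 2.16, on every array and carried no information.

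MEKi alone was also followed by a higher Il1r1 signal. The MEKi tumours read 7.36, 6.90, 7.48, 6.24 and 6.67, all above the highest control value of 5.17, a separation found in 4.61% of all probe sets. The difference from control was 2.12 ± 0.26, or 4.33-fold (limma, adjusted p = 0.0059), and it was called in each of the 10 fits that left out 1 tumour. Blocking on the number series left it at 2.12 (adjusted p = 0.0122). The low series by itself gave 2.25 and the high series 2.02, and neither was called (adjusted p = 0.292 and 0.270).

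With anti-CD40 alone, Il1r1 overlapped with the control tumours. Anti-CD40 tumours read 4.46, 4.25, 5.22 and 5.01, and the difference from control was -0.08 ± 0.25 (95% interval -0.67 to 0.51, limma, adjusted p = 1.00). In order of the mean, MEKi/CD40 stood at 7.98 ± 0.75, MEKi at 6.93 ± 0.51, control at 4.81 ± 0.32 and anti-CD40 at 4.74 ± 0.46 (SD). The neighbours at either end of that order did not pass a test. MEKi/CD40 against MEKi gave 1.05 ± 0.41 (adjusted p = 0.250, MEKi/CD40 1 below MEKi 1 and MEKi 3), and the interaction of both drugs over all 18 arrays gave 1.13 ± 0.48 (adjusted p = 0.282). Against anti-CD40, Il1r1 was higher in MEKi/CD40 by 3.24 ± 0.43 (adjusted p = 0.0071) and in MEKi by 2.20 ± 0.32 (adjusted p = 0.0201). The MEKi/CD40 call was lost without the 3 tumours richest in adipocyte markers, MEKi/CD40 2, MEKi/CD40 4 and anti-CD40 3 (3.60, adjusted p = 0.154). The MEKi call was lost without anti-CD40 2 (2.03, adjusted p = 0.0640), when blocked on the number series (2.40, adjusted p = 0.0816) and in the low series by itself (2.40, adjusted p = 0.0978).

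Il1r2, the decoy receptor, was close to the floor in control tumours and spread widely in MEKi/CD40 tumours. MEKi/CD40 tumours read 5.02, 3.60, 7.77 and 4.70, against 3.04, 2.95, 2.76, 3.35 and 2.79 in control tumours, of which 3 were at the floor. All MEKi/CD40 values lay above all control values, and 1 of them, 7.77 in MEKi/CD40 3, lay 2.75 above the next highest array. The difference of 2.29 ± 0.77 was not called (limma, adjusted p = 0.0984), and it was 2.19 with values below 3 raised to 3 (adjusted p = 0.117). Without MEKi/CD40 3 it was smaller, 1.46, and was called (adjusted p = 0.0292). Anti-CD40 tumours ranged from 2.78 to 4.31 and MEKi tumours from 2.78 to 4.93, and neither differed from control by the test (0.59, adjusted p = 0.927, and 0.71, adjusted p = 0.394).

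Il33 was the ligand that rose in MEKi/CD40. The MEKi/CD40 tumours read 11.80, 11.14, 12.18 and 11.30, and the control tumours 8.04, 9.47, 9.41, 9.07 and 10.61. The groups did not overlap, and control 5 and MEKi/CD40 2 were nearest to each other. The difference was 2.29 ± 0.50, or 4.87-fold (limma, adjusted p = 0.0219). Its call was less stable than that of Il1r1. It was lost without control 3 (2.31, adjusted p = 0.0530), without control 4 (2.22, adjusted p = 0.0553), without MEKi/CD40 1 (2.22, adjusted p = 0.0636) and without the 3 tumours richest in adipocyte markers (2.67, adjusted p = 0.0839). Blocking on the number series kept the call (2.85, adjusted p = 0.0375), and the low series by itself did not (2.85, adjusted p = 0.0904).

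Mean Il33 in the single treatments lay between those of the combination and control, with overlapping tumours. MEKi tumours read 11.07, 10.33, 11.03, 9.45 and 9.99 and overlapped with the control tumours, and the difference from control of 1.05 ± 0.50 was not called (adjusted p = 0.294). Anti-CD40 tumours read 9.56, 9.64, 8.16 and 10.84, a difference from control of 0.23 ± 0.65 (95% interval -1.30 to 1.76, adjusted p = 1.00). MEKi/CD40 tumours all lay above the anti-CD40 tumours, as in 7.6% of all probe sets (2.06 ± 0.58, adjusted p = 0.0768), and above the MEKi tumours, as in 3.14% (1.23 ± 0.40, adjusted p = 0.165), and neither difference was called.

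Casp1, which encodes the protease of the inflammasome, moved by less on the log2 scale and with little spread. MEKi/CD40 tumours read 12.83, 12.52, 12.71 and 12.83, against 11.96, 11.80, 11.68, 11.54 and 12.11 in control tumours. The groups did not overlap. The difference was 0.90 ± 0.13, or 1.87-fold (limma, adjusted p = 0.0043), and it was called in each of the 9 fits that left out 1 tumour. Blocking on the number series gave 0.84 (adjusted p = 0.0358), and the low series by itself gave 0.84 without a call (adjusted p = 0.0571).

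Casp1 was also higher with MEKi alone. MEKi tumours read 12.46, 12.44, 12.34, 12.39 and 12.52, all above the control tumours, with a difference of 0.61 ± 0.10, or 1.53-fold (limma, adjusted p = 0.0137). Blocking on the number series gave 0.61 (adjusted p = 0.0243), and the low and high series by themselves gave 0.57 and 0.64 with neither called (adjusted p = 0.30 and 0.35). Anti-CD40 tumours read 12.71, 12.15, 12.04 and 12.35 and overlapped with control 5. Their difference of 0.49 ± 0.17 was not called (unadjusted p = 0.0205, adjusted p = 0.804). Casp1 in MEKi/CD40 exceeded MEKi by 0.29 ± 0.07 (adjusted p = 0.0822) with MEKi/CD40 2 level with MEKi 5 at 12.52.

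**Figure D2:**
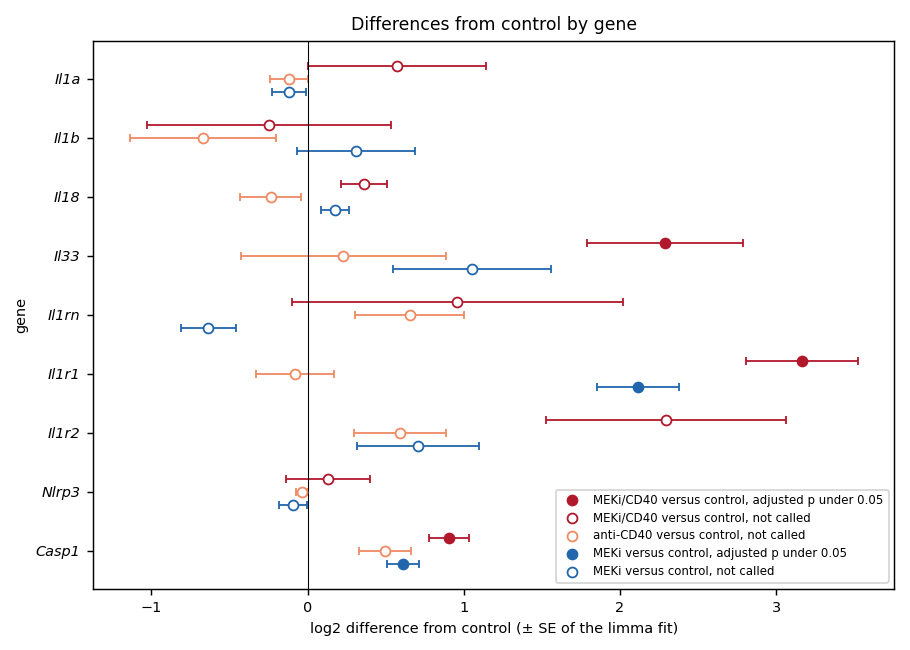
Difference from control on the log2 scale (horizontal axis, ± SE of the limma fit) for 9 genes (vertical axis) in MEKi/CD40, anti-CD40 and MEKi tumours. Filled points were called at an adjusted p under 0.05, namely Il1r1, Il33 and Casp1 in MEKi/CD40 and Il1r1 and Casp1 in MEKi.

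Counted over the 9 genes, MEKi against control gave 2 called higher and 0 lower, where 3.99% of all probe sets were called higher and 3.83% lower. Anti-CD40 against control gave 0 of 9, with 0% of all 45037 probe sets called by limma and 1 of the 9, Casp1, at an unadjusted p under 0.05. MEKi/CD40 against anti-CD40 gave 1 called higher and 0 lower (4.42% and 7.19% of all probe sets), and MEKi against anti-CD40 also gave 1 higher and 0 lower (2.83% and 2.26%). MEKi/CD40 against MEKi gave 0 of 9 (2.5% of all probe sets called), with Il33, Il1r1 and Casp1 at an unadjusted p under 0.05, and the interaction gave 0 of 9 (2.64%), with Il1r1 alone at an unadjusted p under 0.05. The 3 comparisons with control share the same 5 control tumours.

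Of the IL-1 ligands proper, Il1b was detected on every array and showed no shared direction. MEKi/CD40 tumours read 6.70, 6.30, 10.00 and 7.42, and control tumours 7.35, 8.05, 8.30, 7.02 and 8.55. MEKi/CD40 held both the highest value of all 18 tumours, in MEKi/CD40 3, and the lowest, in MEKi/CD40 2. The difference was -0.25 ± 0.78 (95% interval -2.08 to 1.58, adjusted p = 1.00). It was -1.05 without MEKi/CD40 3 (adjusted p = 0.191), and above 0 without MEKi/CD40 1 (0.05) or MEKi/CD40 2 (0.19). Anti-CD40 tumours ranged from 6.36 to 8.27 (-0.67 ± 0.47, adjusted p = 0.927) and MEKi tumours from 7.44 to 8.95 (0.31 ± 0.38, adjusted p = 0.741).

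Il1a, the other IL-1R1 agonist, was at the floor on 17 of 18 arrays. Its 1 reading above the floor was 4.80 in MEKi/CD40 3, and the other MEKi/CD40 tumours read 2.16, 2.16 and 2.29. All anti-CD40 and MEKi tumours read 2.16, and control tumours ranged from 2.16 to 2.72. No fold is given, because only 1 tumour was measured above the floor.

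Il18, the other caspase-1 substrate, was bright everywhere, with overlap between the groups in every pair. MEKi/CD40 tumours ranged from 8.71 to 9.31, anti-CD40 tumours from 7.89 to 8.86, MEKi tumours from 8.67 to 8.86 and control tumours from 8.45 to 8.90. The MEKi/CD40 difference from control was 0.36 ± 0.15 (95% interval 0.01 to 0.71, adjusted p = 0.182). For MEKi it was 0.18 ± 0.09 (adjusted p = 0.317), and it was called at 0.25 without control 4 (adjusted p = 0.0401). MEKi/CD40 exceeded anti-CD40 by 0.60 ± 0.24 (95% interval 0.02 to 1.17, limma, unadjusted p = 0.0437, adjusted p = 0.195). That difference was not called, and 1 of 10 alternative settings called it (adjusted p = 0.0242).

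Il1rn, the antagonist, ran in opposite directions in different tumours. MEKi tumours read 6.45, 6.28, 5.86, 6.00 and 6.42, against 6.47, 6.93, 6.81, 7.30 and 6.67 in control tumours. All MEKi values lay below all control values, with MEKi 1 at 6.45 and control 1 at 6.47 as the nearest pair, a pattern that 4.57% of all probe sets shared. The difference of -0.63 ± 0.18 was not called (limma, adjusted p = 0.0672). It passed when probe sets at the floor on every array were left out before the fit (-0.63, adjusted p = 0.0242), after equal 75th percentiles (-0.62, adjusted p = 0.0414) and as the mean of the gene's probe sets (-0.46, adjusted p = 0.0407). The second detected Il1rn probe set gave -0.66 ± 0.18 (adjusted p = 0.0585).

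For Il1rn, anti-CD40 tumours read 8.57, 7.10, 7.30 and 6.99, against 6.47 to 7.30 in control tumours (0.65 ± 0.35, limma, adjusted p = 0.927). Only anti-CD40 1 lay above the control range, and leaving out 1 tumour gave 0.29 to 0.82. Every MEKi tumour lay below every anti-CD40 tumour, as in 5.19% of all probe sets, by -1.29 ± 0.34 (adjusted p = 0.0771) in the probe set that stood for the gene and by -1.63 ± 0.30 in the second, which was called (adjusted p = 0.0297). The MEKi/CD40 tumours read 6.23, 6.81, 11.44 and 6.70. MEKi/CD40 3 lay far above the other tumours of its group, and the difference from control was 0.96 ± 1.06 with that tumour and -0.26 without it (adjusted p = 0.684 and 0.602). The same tumour was highest in the other Il1rn probe sets, at 11.08 in the second and at 8.56 in the third, which read 3.14 on most arrays.

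Nlrp3, the sensor, was at the floor on 17 of 18 arrays. MEKi/CD40 3 read 5.06, and the other tumours ranged from 3.54 to 4.02 around a repeated value of 4.00. No fold is given for Nlrp3.

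**Figure D3:**
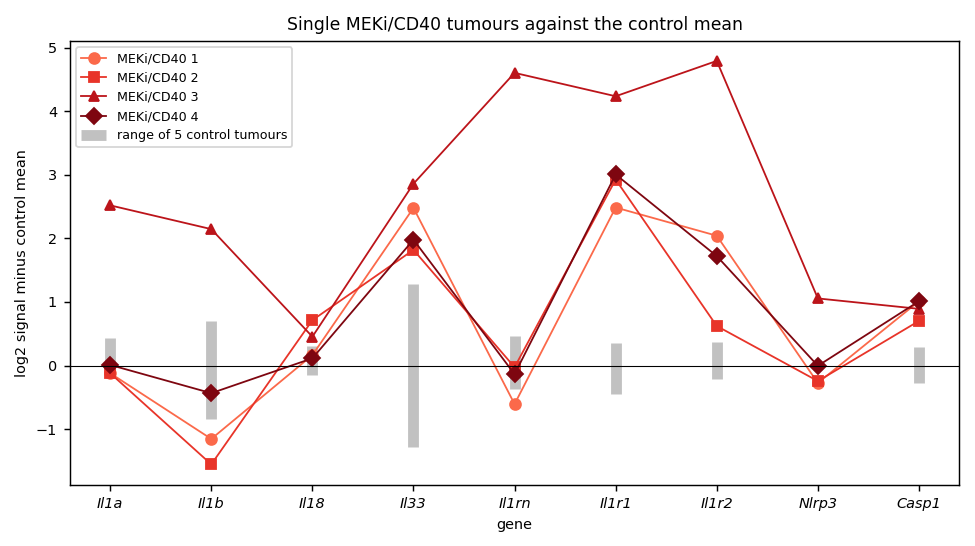
Log2 signal of each MEKi/CD40 tumour minus the control mean (vertical axis) for 9 genes (horizontal axis); lines only join the values of 1 tumour, and grey bars give the range of the 5 control tumours. MEKi/CD40 3 is the highest of the 4 tumours in Il1a, Il1b, Il33, Il1rn, Il1r1, Il1r2 and Nlrp3. In Il33, Il1r1, Il1r2 and Casp1 all 4 tumours lie above the control range.

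Il33, Il1r1, Casp1 and the uncalled Il1r2 lay above the control range in every MEKi/CD40 tumour, whereas Il1a, Il1rn and Nlrp3 stood out in MEKi/CD40 3 alone. Links among Il1a, Il1rn and Nlrp3 rested on that tumour. Over 18 arrays Il1rn and Nlrp3 had a Pearson r of 0.868, and over the 17 arrays without MEKi/CD40 3 it was 0.392. For Il1a and Il1rn the values were 0.844 and -0.118. These correlations are descriptions, since the arrays share treatment groups and several values are at the floor.

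The other IL-1 family receptors and binding proteins held 1 gene called higher and 1 called lower among 8 measured in MEKi/CD40 against control, with a median difference of 0.29. Without MEKi/CD40 3 the counts were the same and the median was 0.04. With that tumour, 5.5% of all probe sets were called higher and 9.37% lower. Without it, 17.3% were called in either direction. Il1rap, the co-receptor that IL-1R1 and the IL-33 receptor need to signal, was lower. MEKi/CD40 tumours read 8.38, 8.15, 8.91 and 7.97, and control tumours 9.40, 9.41, 9.64, 9.73 and 9.48, with no overlap. The difference was -1.18 ± 0.19 (limma, adjusted p = 0.0069), and it was called in each of the 9 fits that left out 1 tumour. MEKi tumours read 8.58, 8.84, 8.81, 9.04 and 8.90 and were lower too, by -0.70 ± 0.10 (adjusted p = 0.0082), while anti-CD40 tumours ranged from 9.45 to 10.06 (0.17 ± 0.13, adjusted p = 0.927). The ligand-binding chain Il1r1 and its co-receptor Il1rap moved in opposite directions in both groups that received MEKi.

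Il1rl2, the receptor for IL-36, was above the floor in MEKi/CD40 tumours and at the floor in the other 14 tumours. MEKi/CD40 tumours read 3.21, 5.26, 7.53 and 5.07, and no other tumour exceeded 2.81. With control at the floor, the signal was at least 4.81-fold higher in MEKi/CD40 (limma, adjusted p = 0.0443), a call that 7 of the 9 fits without 1 tumour lost, up to an adjusted p of 0.102. Without MEKi/CD40 3 the bound was at least 2.85-fold (adjusted p = 0.0280). The interaction of both drugs was called for Il1rl2 (adjusted p = 0.0436) and was not in 16 of the 18 fits without 1 tumour, and no size is given because the other 3 groups were at the floor. Il18bp, a soluble inhibitor of IL-18, averaged 10.00 ± 0.79 in MEKi/CD40, 9.75 ± 0.29 in anti-CD40, 9.03 ± 0.23 in MEKi and 8.42 ± 0.58 in control tumours (SD), and its difference of 1.58 ± 0.45 between MEKi/CD40 and control did not pass (adjusted p = 0.0555). The remaining ligands of the family, the IL-36 cytokines and their antagonist and Il1f10, were all at the floor on all 18 arrays, 5 of 5 genes.

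Outside Nlrp3 and Casp1, few of the inflammasome genes were called. Of 17 measured, 0 were called higher and 2 lower in MEKi/CD40 against control, with a median of -0.10, where 5.5% of all probe sets were called higher and 9.37% lower. The lower genes were Brcc3, a deubiquitinase that acts on NLRP3 (-0.65 ± 0.07, adjusted p = 0.0019), and Casp8, an apical apoptotic caspase (-0.30 ± 0.07, adjusted p = 0.0246, a call lost in 7 of the 9 fits without 1 tumour). In MEKi against control 0 were higher and 2 lower (3.99% and 3.83% of all probe sets). Pycard, which encodes the adaptor ASC between NLRP3 and caspase-1, was lower by -1.39 ± 0.30 (adjusted p = 0.0312), and Naip5, a sensor of bacterial flagellin, by -1.14 ± 0.29 (adjusted p = 0.0487). Pycard was at 9.02, 8.98, 7.94, 9.30 and 9.63 in MEKi tumours, against 10.65, 10.67, 10.03, 10.33 and 10.15 in control tumours. In MEKi/CD40 tumours it was at 9.22, 9.13, 11.19 and 9.64, with MEKi/CD40 3 again highest. Without that tumour 1 gene of the list was called higher in MEKi/CD40 against control, Txnip, which encodes an NLRP3-binding protein (0.49, adjusted p = 0.0135), and 3 were called lower, namely Brcc3, Pycard (-1.04, adjusted p = 0.0167) and the gasdermin Gsdme (-1.81, adjusted p = 0.0318). Of all probe sets, 17.3% were called in either direction without that tumour. In MEKi against control, the Pycard call was lost in 6 of the 10 fits without 1 tumour, up to an adjusted p of 0.0749. The Naip5 call was lost in 9 of 10, up to an adjusted p of 0.104. MEKi against anti-CD40 gave 0 higher and 3 lower, Pycard (-1.47), Mefv, which encodes the sensor pyrin (-1.09), and Naip2, a sensor of bacterial secretion systems (-1.23), where 2.83% of all probe sets were called higher and 2.26% lower.

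Signalling components below the receptors moved by small amounts. The median difference of the 19 genes measured was 0.19 in MEKi/CD40 against control. Of all probe sets, 5.5% were called higher in that comparison and 9.37% lower. Of the 19 genes, 4 were called higher and 0 lower. They were the ubiquitin ligase Traf6 (0.37 ± 0.07, adjusted p = 0.0143), the NF-κB subunit Rela (0.17 ± 0.04, adjusted p = 0.0217), the NF-κB inhibitor Tnfaip3 (0.55 ± 0.14, adjusted p = 0.0385) and the NF-κB cofactor Nfkbiz (0.69 ± 0.19, adjusted p = 0.0469). Of these, Traf6 was called in each of the 9 fits without 1 tumour, Rela in 7, Nfkbiz in 2 and Tnfaip3 in 1. Without MEKi/CD40 3, 3 of the 19 genes were called higher and 0 lower, with a median of 0.13. Traf6 and Rela were among them, and Nfkbiz and Tnfaip3 were not. In that fit 17.3% of all probe sets were called in either direction. In MEKi against control, Traf6, Tab2, Ikbkg and Tnfaip3 were called higher, by 0.10 to 0.46, and Nfkbia, which encodes IκBα, was called lower (-0.31 ± 0.06, adjusted p = 0.0221). Of all probe sets, 3.99% were called higher in that comparison and 3.83% lower.

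Genes that IL-1 is known to induce in stromal and myeloid cells rose in part. Of 20, 6 were called higher and 0 lower in MEKi/CD40 against control, where 5.5% of all probe sets were called higher, and 4 of the 20 were at the floor on all arrays. The list's median was 0.80, against 0 over all probe sets. The long pentraxin Ptx3 read 8.94, 10.38, 11.59 and 9.38 in MEKi/CD40 tumours, against 3.73, 2.86, 2.87, 2.86 and 3.01 in control tumours, of which 3 were at the floor (7.01 ± 0.54, adjusted p = 0.000775, and 6.92 with values below 3 raised to 3). The neutrophil attractant Cxcl1 read 12.19, 11.57, 12.43 and 11.09, against 8.34, 8.75, 7.98, 8.37 and 8.59 (3.41 ± 0.30, adjusted p = 0.00108). Groups were fully separated for both genes. The acute-phase gene Saa3 was higher by 7.08 ± 0.67 (adjusted p = 0.00133). For the chemokine Cxcl5 and the cytokine Il6, control tumours were at the floor, and the signals were at least 18.3-fold (adjusted p = 0.0031) and at least 3.55-fold (adjusted p = 0.0220) higher. Without MEKi/CD40 3 these bounds were at least 13.5-fold (limma, adjusted p = 0.0047) and at least 2.62-fold (adjusted p = 0.0309). The matrix protease Mmp3 was higher by 3.87 ± 1.00 (adjusted p = 0.0399).

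The calls differed in stability. Ptx3, Cxcl1, Saa3 and Cxcl5 were called in each of the 9 fits that left out 1 tumour, Il6 in 5 and Mmp3 in 1. MEKi/CD40 3 was the highest array for 12 of the 16 genes of this list that were above the floor somewhere. Without that tumour the list had 5 called higher, Mmp3 no longer among them, and 1 lower, with a median of 0.47. In that fit 17.3% of all probe sets were called in either direction. Of the other 14 genes, Cxcl2 read 3.14, 3.14, 8.51 and 2.38 in MEKi/CD40 tumours, again high in MEKi/CD40 3, and Nos2 was at the floor throughout.

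With MEKi alone, 5 of the 20 were called higher and 1 lower against control. Of all probe sets, 3.99% were called higher in that comparison and 3.83% lower. Ptx3 (4.19 ± 0.72, adjusted p = 0.0146, and 4.11 with values below 3 raised to 3), Vcam1 (0.44 ± 0.08, adjusted p = 0.0165), Cxcl1 (2.02 ± 0.44, adjusted p = 0.0312), Saa3 (3.48 ± 0.84, adjusted p = 0.0436) and Lif (0.79 ± 0.20, adjusted p = 0.0472) were higher, and the monocyte attractant Ccl2 was lower (-0.82 ± 0.18, adjusted p = 0.0298). Ptx3 and Vcam1 were called in each of the 10 fits without 1 tumour, Cxcl1 and Ccl2 in 3, and Saa3 and Lif in 1. With anti-CD40 alone 0 of 20 were called by limma, as for all probe sets. Saa3 had the smallest unadjusted p of that list in anti-CD40 against control (3.01 ± 0.77, unadjusted p = 0.0052, adjusted p = 0.649). Between MEKi/CD40 and MEKi, 0 of 20 were called, and between MEKi/CD40 and anti-CD40, 5 were called higher and 0 lower. Of all probe sets, 2.5% were called in the first of these comparisons. In the second, 4.42% were called higher and 7.19% lower.

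**Figure D4:**
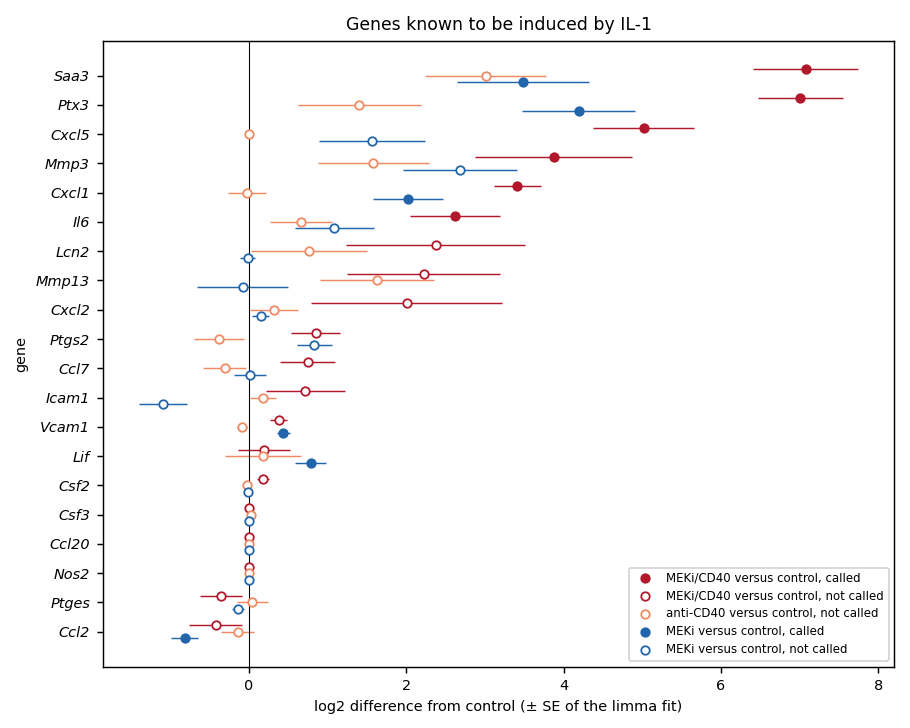
Difference from control on the log2 scale (horizontal axis, ± SE of the limma fit) for 20 genes known to be induced by IL-1 (vertical axis) in MEKi/CD40, anti-CD40 and MEKi tumours. Filled points were called at an adjusted p under 0.05, 6 for MEKi/CD40 and 6 for MEKi, of which Ccl2 is the one that was lower.

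Genes that follow IL-33 and IL-18 in lymphocytes were not called in any of the 3 comparisons with control, 0 of 6 measured each, and 4 of the 6 (Il4, Il5, Il9 and Il13) were at the floor on all arrays. Of all probe sets, 5.5% were called higher and 9.37% lower in MEKi/CD40, 3.99% and 3.83% in MEKi, and 0% in anti-CD40. Ifng, which IL-18 induces in T and NK cells, averaged 1.39 ± 0.75 above control in MEKi/CD40 (adjusted p = 0.337) and 1.45 ± 0.60 in anti-CD40 (adjusted p = 0.901). Gzmb differed from control by -0.73 ± 0.59 in MEKi/CD40 (adjusted p = 0.601).

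Fibroblast markers rose in MEKi/CD40 against control, as did Il1r1, Il33 and Casp1. Which cells carried these genes was not measured. Of all probe sets, 5.5% were called higher in MEKi/CD40, 3.99% in MEKi and 0% in anti-CD40, each against control. Of 10 fibroblast markers, none of them at the floor on all arrays, 9 were called higher in MEKi/CD40 and 6 in MEKi against control, and 0 in anti-CD40. Examples were Col1a1, a chain of type I collagen (5.25 ± 0.42 in MEKi/CD40, adjusted p = 0.000857, and 3.52 ± 0.51 in MEKi, adjusted p = 0.0094) and the proteoglycan Lum (6.16 ± 0.44, adjusted p = 0.000693, and 3.93 ± 0.37, adjusted p = 0.0030). The mean log2 signal of the 10 markers ranged from 12.39 to 12.84 in MEKi/CD40, from 9.45 to 10.40 in anti-CD40, from 10.67 to 11.42 in MEKi and from 8.90 to 9.83 in control tumours. In both this score and Il1r1, MEKi/CD40 stood highest and MEKi next. The tumours formed clusters by treatment on this score, and a relation within groups was not tested. The part of fibroblast content in the Il1r1, Il33 and Casp1 differences was not tested.

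**Figure D5:**
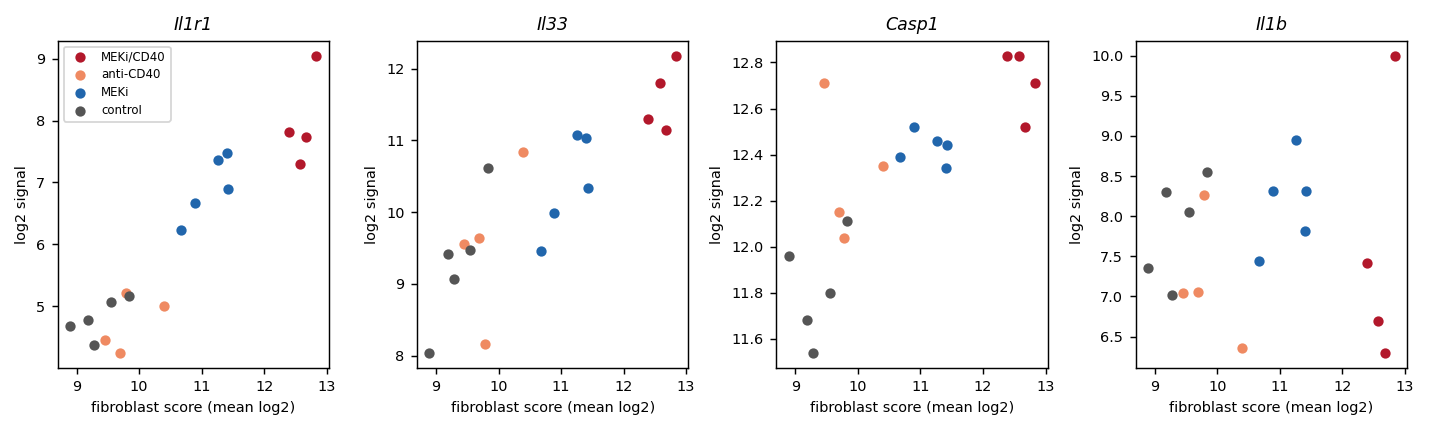
Log2 signal of Il1r1, Il33, Casp1 and Il1b (vertical axes) against the mean log2 signal of 10 fibroblast markers (horizontal axes) in 18 tumours, coloured by treatment. MEKi/CD40 tumours hold the highest fibroblast scores, 12.39 to 12.84, and control tumours the range 8.90 to 9.83, and Il1b has its highest and its lowest value both among MEKi/CD40 tumours.

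Markers of other cell types were read in the same way. Of 8 epithelial markers 1 was called lower in MEKi/CD40 against control, and 7 were at the floor on all arrays. Without MEKi/CD40 3 the epithelial marker Cdh1 was called lower (-1.27, limma, adjusted p = 0.0494). Of 12 epidermal markers 2 were called higher in MEKi/CD40 and 5 were at the floor on all arrays, with means of 3.56 to 4.00 in MEKi/CD40, 3.16 to 3.91 in MEKi and 2.96 to 3.14 in control tumours. Of 8 endothelial markers 1 was higher. The mean of 7 adipocyte markers ranged from 4.08 to 10.83 in MEKi/CD40 and from 3.57 to 4.50 in control tumours. Of 6 monocyte markers 3 were called higher in MEKi/CD40 against control, where 5.5% of all probe sets were called higher and 9.37% lower. By limma, 0 of 7 dendritic cell, 0 of 8 mast cell and 0 of 5 eosinophil markers were called. Also called were 0 of 11 T cell and 0 of 8 skeletal muscle markers. At the floor on all arrays were 3 dendritic cell, 4 mast cell, 4 eosinophil and 3 T cell markers. Without MEKi/CD40 3 the T cell marker Gata3 was called higher (0.90, adjusted p = 0.00701) and the dendritic cell marker Itgax lower (-1.94, adjusted p = 0.0412). The mean of the 8 skeletal muscle markers was 8.21 in MEKi/CD40 4, against 2.19 to 2.81 in the other 17 tumours. Without MEKi/CD40 4 the differences from control were 3.22 for Il1r1 (adjusted p = 0.00700), 2.39 for Il33 (adjusted p = 0.0468) and 0.87 for Casp1 (adjusted p = 0.0148), all called. In MEKi against control, 3.83% of all probe sets were called lower. Of 11 macrophage markers, 0 were higher and 1 lower in MEKi/CD40 against control (median difference -0.29) and 4 lower in MEKi. Without MEKi/CD40 3, 3 were lower in MEKi/CD40 (Csf1r, Fcgr1 and Itgam, median -0.41), where 17.3% of all probe sets were called in either direction. The list had means of 11.08 to 12.40 in MEKi/CD40, 11.27 to 11.70 in anti-CD40, 10.66 to 11.52 in MEKi and 11.48 to 11.90 in control tumours. Of 11 neutrophil markers 6 were at the floor on all arrays and 2 were called higher in MEKi/CD40, and the mean of the list was highest in MEKi/CD40 3, at 5.11, against 4.25 to 4.56 in the other MEKi/CD40 tumours and 3.52 to 3.70 in control tumours. The macrophage mean was also highest in MEKi/CD40 3, at 12.40. The part of these cells in the Il1a, Il1b, Il1rn and Il1r2 values of that tumour was not tested.

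The genes most like each family member were sought by Pearson correlation over the 18 arrays among 10493 genes detected on at least 9 arrays. Il1r1 was most like Ddah1 (r = 0.967), Glis3 (0.964) and Bgn (0.963), the last a matrix proteoglycan. Il33 was most like Pde4b (0.959), Mmp19 (0.945) and Plpp3 (0.941), and Casp1 was most like Stx8 (0.917), Atp6v1e1 (0.879) and Eif4e3 (0.879). Il1b had Ier2 (0.840), an immediate early gene, followed by Pgs1 (0.760) and Iffo2 (0.740). Il18 had AW551984 (0.826), Metrnl (0.793) and Pdgfd (0.791). For Il1rn the nearest were Galnt6 (0.927), Hk3 (0.912) and Slc7a11 (0.896), and for Il1r2 they were Eng (0.884), Gpr137b-ps (0.865) and Diaph1 (0.865). These values describe 18 tumours that share 4 treatments, and for Il1rn and Il1r2 they lean on MEKi/CD40 3, without which they were 0.571 to 0.730. For Il1b they were 0.759, 0.591 and 0.577 without it.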

How the data were processed

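The authors hybridised RNA of 18 snap-frozen tumours after 3′ IVT labelling and summarised it with RMA, in Chipster per the study's methods (version not given in the sources used here). Deposited values are log2 signals with 2 decimals, of which 34.4% equal the lowest, 2.16, so the exact background step is uncertain. Of 45101 probe sets, 64 controls were left out and 45037 were tested with no filter. Gene symbols came from the platform annotation (34945 probe sets with 1 symbol). The limma package 3.58.1 (R 4.3.3) gave a fit for each pair of groups and for the interaction, and p-values were adjusted over all probe sets after Benjamini and Hochberg. The fits were tested on simulated data. Fold bounds written as at least raise the dim group to its floor, or to 3. Each array is 1 animal, and the number of arrays limits precision.

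The 10 genes and the 19 gene lists (187 of 205 genes measured) were chosen with earlier results of these data known. Named were all 10 genes, up to 5 genes of a pathway list by adjusted p in MEKi/CD40 against control, those called in MEKi against control or MEKi/CD40 against anti-CD40 among the 3 smallest p, up to 3 per cell type list, and the 3 best correlated genes. Mmp3, Lif, Cxcl2, Nos2, Txnip, Gsdme, Mefv, Naip2, Gata3, Itgax, Csf1r, Fcgr1 and Itgam were named after their values were seen. Alternatives covered normalization, floor, filter, moderation, probe set, number series, replicate number, adipocyte-rich arrays and left-out arrays. The high number series alone was added after the data were seen.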

Additional observations from a re-analysis of the deposited data

Results flagged for a closer look

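Among 36 sets of 1 gene in 1 group, 6 held a single tumour far from the rest of its group by Dixon's gap test, where chance alone gives about 1 in 20. That rate does not hold for repeated floor values, which made up 4 of the 6. The rest came from 1 tumour, so the count is not set against that rate. In MEKi/CD40 3, Il1rn read 11.44, with the next tumour of its group at 6.81, and Il1a read 4.80, with the next at 2.29, which is at the floor. The causes were not tested. The other 4 lay at the background floor, where a gap carries no signal: Il1a read 2.72 in control 1, and Nlrp3 read 3.85 in anti-CD40 4, 3.54 in MEKi 3 and 4.02 in control 1.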

How the results depend on the processing

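The number of called genes differed by more than 1.5 times under these alternatives. In MEKi/CD40 against control (3 of 9) it was 0 within the low number series and 0 with the replicate block. In MEKi against control (2 of 9) it was 0 within the low series, 0 within the high series, and 0 with the replicate block. In MEKi/CD40 against anti-CD40 (1 of 9) it was 4 with all 18 arrays in the fit, 2 without probe sets at the floor on every array, 0 without the 3 arrays richest in adipocyte markers, and 1 to 2 when 1 array was left out. In MEKi against anti-CD40 (1 of 9) it was 0 within the low series, with the series as a block, with the replicate block and with trend and robust moderation, 2 without floor probe sets, and 0 to 2 when 1 array was left out. In MEKi/CD40 against MEKi (0 of 9) it was 1, Casp1, after cyclic loess, equal 75th percentiles or quantile normalization and without floor probe sets, and 0 to 1 when 1 array was left out. The cause was not tested. The fits within a single series also held fewer arrays.

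Same-numbered tumours did not deviate together (r from -0.35 to 0.28 over 25 pairs, 6 over 0.1), and in 2 of 25 cases, with a tumour counted once in each comparison it entered, it correlated best with its own number, so the replicate number was not taken as a pairing. With the replicate block Il1r1, Il33 and Casp1 in MEKi/CD40 against control stood at 3.25, 2.61 and 0.98 (adjusted p = 0.0671, 0.0899 and 0.0682).

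None of the 9 genes changed direction in a comparison where it was called. Uncalled differences did, as follows. Against control in MEKi/CD40, leaving out 1 array gave Il1a -0.077 to 0.80, Il1b -1.05 to 0.19, Il1rn -0.26 to 1.48 and Nlrp3 -0.17 to 0.27, Il1b was 0.50 without the adipocyte-rich arrays and Nlrp3 -0.044 after quantile normalization. Against control in anti-CD40, leaving out 1 array gave Il1r1 -0.24 to 0.083, Il33 -0.20 to 0.69 and Nlrp3 -0.054 to 0.0027, and Il1r1 was 0.01 with the replicate block. In MEKi against control, Il1b was -0.10 in the high series. In MEKi/CD40 against anti-CD40 the leave-one-out ranges were -0.38 to 0.86 for Il1b, -0.91 to 0.83 for Il1rn and -0.14 to 0.31 for Nlrp3, with Il1rn at -0.0125 in its second probe set and Nlrp3 at -0.036 after quantile normalization. Nlrp3 ranged from -0.08 to 0.36 in MEKi/CD40 against MEKi, where Il1b was 0.19 without the adipocyte-rich arrays. In MEKi against anti-CD40, Il1r2 ranged from -0.20 to 0.36 and Nlrp3 from -0.097 to 0.035, and Nlrp3 was 0.0325 in the low series and 0.0325 with the series as a block. The interaction ranged from -0.69 to 0.55 for Il1b, -0.28 to 1.46 for Il1rn and -0.0435 to 0.40 for Nlrp3, and for Il1b it was -0.51 in the low series and -0.025 with the replicate block.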
